A study of Mus musculus with 24 samples.

Results

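Cck encodes preprocholecystokinin, the precursor of the peptide hormone cholecystokinin (CCK). It was 1 of the 16730 genes in the deposited tables and 1 of the 15020 genes that passed the filter on low counts. The gene was selected by its symbol after earlier results of these data had shown it lower on a high-fat diet in both genotypes, so its values by diet are a description and carry no test. Bulk RNA of epididymal white adipose tissue (eWAT, labelled gonadal fat) was sequenced from the 3′ ends of transcripts by QuantSeq in 24 male mice, 6 in each of 4 groups. Every mouse, control or not, carried the floxed Lama4 gene, in which loxP sites flank exon 3. The groups were Lama4 fl/fl and Lama4 AKO mice fed breeder chow for 20 weeks, and Lama4 fl/fl and Lama4 AKO mice fed a 45% fat diet (HFD) for 20 weeks. In the study's figure legends, chow was given from weaning and HFD from a later age, and HFD feeding ended at an older age. Age at collection thus goes with diet and cannot be told apart from it here. In the study's methods, Lama4 AKO mice (adipocyte-specific knockout of laminin α4) carry a Cre driven by the adiponectin promoter, a promoter active in adipocytes, and the Lama4 fl/fl mice were their littermates.

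CCK is known as a hormone of enteroendocrine I cells of the duodenum and as a neuropeptide of the brain. Dietary fat and protein release it from the gut, and it then drives gallbladder contraction, pancreatic enzyme secretion and satiety. Its precursor is cut by prohormone convertases, trimmed by a carboxypeptidase, amidated at its C-terminus and sulfated on a tyrosine, and the mature peptides act on 2 Gq-coupled receptors, Cckar and Cckbr. In white fat, Cck mRNA is not part of the usual description of any resident cell type.

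Cck (ENSMUSG00000032532) lies on the minus strand of GRCm38 at chr9:121489824-121495694. The 250 bases before its start in RefSeq (GRCm38.p6, chr9:121495695-121495944, minus strand) are printed because the best known control elements of Cck lie there, and the capitals mark 2 matches found in them.
Cck promoter: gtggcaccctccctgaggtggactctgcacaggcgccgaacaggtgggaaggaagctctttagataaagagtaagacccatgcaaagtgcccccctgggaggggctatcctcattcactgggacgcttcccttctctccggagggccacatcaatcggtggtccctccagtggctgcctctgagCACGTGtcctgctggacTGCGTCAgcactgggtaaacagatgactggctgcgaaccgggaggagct
The first match is the E-box CACGTG, a binding sequence of USF factors, at 66 to 61 bases before the start, and it occurs in 6.02% of 32851 promoter windows of the same length. The second is TGCGTCA, a sequence of the kind bound by CREB and AP-1 factors, at 49 to 43 bases before the start, found in 1.75% of those windows. Neither overlaps the other, both strands were searched, and the palindromic CRE TGACGTCA (1.55% of windows) and the GC box GGGCGG (32.7%) had no match. A match describes the letters only, and these motifs were chosen with the sequence in view.

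Total counts per library ran from 5579590 to 18764516. The first principal component of the 24 libraries held 45.8% of their variance and did not separate the diets: chow-fed Lama4 fl/fl replicate 1, chow-fed Lama4 AKO replicates 1 and 3 and HFD-fed Lama4 fl/fl replicates 4 and 6 lay at one end, and the other HFD-fed libraries except Lama4 fl/fl replicate 3 and Lama4 AKO replicate 6 lay at the opposite end with chow-fed Lama4 fl/fl replicate 3. Results are also given for 19 mice, without HFD-fed Lama4 fl/fl replicates 3, 4 and 6, chow-fed Lama4 fl/fl replicate 3 and chow-fed Lama4 AKO replicate 5. These 5 libraries were taken, by inference in an earlier look at these data, as those the study set aside as outliers. The principal component above was not used here to choose them. The study's methods looked for outliers by principal components, so the 19 mice are not independent of that component. Chow-fed Lama4 fl/fl replicate 1 and chow-fed Lama4 AKO replicates 1 and 3 stay among the 19. Lama4 itself was not lower in the chow-fed libraries labelled Lama4 AKO than in their controls (log2 fold change 0.11 ± 0.343 SE, adjusted p = 0.980, edgeR quasi-likelihood test), and on HFD the difference was -0.69 ± 0.346 (adjusted p = 0.347). Reads at the 3′ end lie outside exon 3 and do not check its deletion, so genotype is given here as labelled.

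In chow-fed Lama4 fl/fl mice, Cck stood at 0.721, 24.4, 37.8, 47.5, 57.0 and 61.9 CPM (read counts scaled to library size, with TMM factors) in replicates 1 to 6, a median of 42.7. These were 7, 313, 591, 826, 1004 and 813 reads. Because QuantSeq reads come from transcript ends, CPM does not scale with transcript length. Replicate 1 was lower than all 23 other libraries of the series. Its 7 reads give an exact 95% binomial interval of 0.290 to 1.49 CPM, which covers counting error only and stays below the next lowest of its group.

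In HFD-fed Lama4 fl/fl mice, Cck stood at 1.99, 2.82, 9.51, 1.66, 4.74 and 1.93 CPM in replicates 1 to 6, a median of 2.41. These were 33, 46, 123, 21, 77 and 26 reads, so the level rested on few reads but above the floor of 3 in each library. Chow was higher in 30 of the 36 pairs of libraries, and 5 of the 6 chow-fed libraries lay above every HFD-fed one. Among all genes tested, 1.3% had at least as many of those chow-fed libraries above all HFD-fed ones. The other chow-fed library, replicate 1, lay below all 6, so the groups overlapped.

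In chow-fed Lama4 AKO mice, Cck stood at 9.01, 56.6, 72.4, 109, 6.83 and 10.8 CPM in replicates 1 to 6, a median of 33.7, from 145, 631, 1102, 1669, 40 and 160 reads. The group fell into 3 libraries above 50 CPM and 3 near 10 CPM, with none between. In HFD-fed Lama4 AKO mice, Cck stood at 6.15, 1.31, 5.12, 2.59, 2.41 and 15.7 CPM, a median of 3.86, from 74, 16, 65, 29, 23 and 175 reads. Here 5 of the 6 HFD-fed libraries lay below every chow-fed one, and replicate 6 lay above the lower 3. Chow was higher in 33 of 36 pairs, and 3 chow-fed libraries lay above all HFD-fed ones, which 30.5% of genes matched or exceeded.

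**Figure D1:**
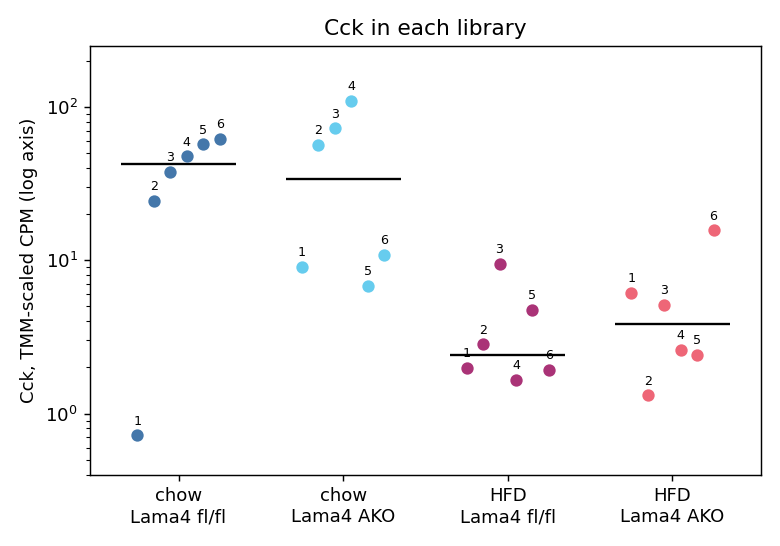
Cck in each of the 24 libraries, in TMM-scaled CPM on a log axis, by group, with replicate numbers beside the points and a bar at each group's median. Medians were 42.7 and 33.7 CPM on chow and 2.41 and 3.86 CPM on HFD, and chow-fed Lama4 fl/fl replicate 1 was the lowest point of all at 0.721 CPM.

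By group mean, the order of Cck levels was Lama4 AKO on chow (44.1 ± 42.2 CPM, SD, n = 6), Lama4 fl/fl on chow (38.2 ± 22.8), Lama4 AKO on HFD (5.54 ± 5.27) and Lama4 fl/fl on HFD (3.78 ± 3.03). Neighbours in that order on the same diet did not differ beyond their spread. The fitted difference of HFD from chow was -3.35 ± 0.800 (SE) on the log2 scale in Lama4 fl/fl mice, a 10.2-fold lower level, and ranked 8 of 15020 genes by size. In Lama4 AKO mice it was -2.99 ± 0.787, or 7.97-fold lower, and ranked 73. Without chow-fed Lama4 fl/fl replicate 1 the first value was -3.60, and without chow-fed Lama4 AKO replicate 4, the highest library, the second was -2.51.

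The call used for all genes asked for a nominal p of 0.001 or less, a change of 1.5-fold or more and a mean of 2 CPM or more in the higher group. Cck met it in both diet comparisons, which 2 genes did in all (0.0133% of those tested), the pattern for which it was chosen. By this rule 0.0666% of genes were called lower on HFD in Lama4 fl/fl mice and 2.83% in Lama4 AKO mice. Cck met the criteria in 23 of 31 alternative fits in Lama4 fl/fl mice and in 13 of 31 in Lama4 AKO mice, and with limma-voom or with the replicate number as a block it met them in neither genotype. Of these fits 24 left out 1 library, and 20 and 9 of them met the criteria. A library of the other genotype enters only through the shared spread and scaling. In Lama4 fl/fl mice every fit without a Lama4 AKO library met the criteria, and those without HFD-fed Lama4 fl/fl replicate 1, 2, 4 or 6 did not. In the 19 mice it met them with edgeR in Lama4 AKO mice but not in Lama4 fl/fl mice. In Lama4 fl/fl mice no gene reached an adjusted p of 0.05 with edgeR (0 of 15020, 1354 at an unadjusted p under 0.05) or limma-voom (0), and 27 did with DESeq2. With edgeR 4311 did in the 19 mice, and 4591 with limma-voom.

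Genotype was not used in choosing Cck and was tested. On chow, Lama4 AKO exceeded Lama4 fl/fl by 0.21 on the log2 scale (SE 0.714, 95% interval -1.28 to 1.70, adjusted p = 0.982, edgeR), against 0.113% of genes called. On HFD the difference was 0.56 (SE 0.774, interval -1.06 to 2.17, adjusted p = 0.725), against 0.173% called. Exact two-sided permutation tests of mean log2 CPM over all 924 splits gave p = 0.896 on chow and p = 0.563 on HFD. The difference of the diet effects between genotypes was 0.35 (SE 1.05, interval -1.84 to 2.54, adjusted p = 0.874, edgeR), against 0.386% called. Both diet differences that enter this value were used in choosing Cck, so its p-value is not free of that choice. Each interval spans more than a 2-fold change in either direction, so equal levels were not shown. The sign of the genotype difference turned on single mice: it was -0.05 on chow without Lama4 fl/fl replicate 1 and -0.28 without Lama4 AKO replicate 4, and -0.11 on HFD without Lama4 AKO replicate 6.

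Cck varied among mice of the same group far more than most genes. The pooled SD of its log2 CPM within groups was 1.65, against a median of 0.387 for the 500 genes nearest to it in mean level, of which 1 had a higher SD. Over all genes tested, 0.573% had a higher SD. By group, the SD on chow was 2.35 in Lama4 fl/fl (percentile 99.8 of genes in that group) and 1.74 in Lama4 AKO mice (percentile 99.5). It was 0.93 in HFD-fed Lama4 fl/fl (percentile 84.3) and 1.21 in HFD-fed Lama4 AKO mice (percentile 98.5). The value of chow-fed Lama4 fl/fl mice rested on replicate 1, since without it the SD was 0.54 (percentile 81.2), below that of each other group, and the pooled SD was 1.21, with 2.24% of genes higher. In HFD-fed Lama4 fl/fl mice the SD was 0.58 (percentile 57.1) once replicate 3 was left out.

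Markers of mature adipocytes (Adipoq, Plin1, Lep, Fabp4, Cidec, Lipe and Pnpla2, all 7 present) had a lower summed median on HFD in both genotypes, with ranges that overlapped. With edgeR 0 of the 7 were called between diets in Lama4 fl/fl mice (log2 fold changes -0.55 to 0.28, median -0.13), and 1, Lep, in Lama4 AKO mice (-2.10 ± 0.512, adjusted p = 0.0170). Of all genes, 0.173% and 4.12% were called. In Lama4 AKO mice all 7 were lower (-2.10 to -0.66, median -0.99). There 6 of the 7 had an unadjusted p under 0.05 (edgeR), as had 5976 of all 15020 genes, and in Lama4 fl/fl mice 0 had. Their summed level had medians of 31100 CPM (18650 to 45640) in Lama4 fl/fl and 28680 (15020 to 37120) in Lama4 AKO mice on chow, and 18550 (8651 to 44230) in Lama4 fl/fl and 10200 (8817 to 23930) in Lama4 AKO mice on HFD. The ratio of chow to HFD medians over all libraries was thus 1.68 and 2.81 for the list, against 17.7 and 8.74 for Cck. The value of 1.68 includes HFD-fed Lama4 fl/fl replicates 3, 4 and 6 (23340, 44230 and 37020 CPM), taken above as outliers. HFD-fed Lama4 fl/fl replicates 1, 2 and 5 had 8651, 10720 and 13760 CPM, so the list differed more between diets without those libraries. Fewer adipocytes and less RNA per adipocyte cannot be told apart in bulk tissue. Per 1000 CPM of the adipocyte list, Cck had medians of 1.62 and 1.15 CPM on chow and 0.247 and 0.385 CPM on HFD, for Lama4 fl/fl before Lama4 AKO, with ranges of 0.016 to 2.02, 0.243 to 4.54, 0.037 to 0.408 and 0.136 to 0.654.

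The libraries richest in adipocyte markers were not those richest in Cck. Chow-fed Lama4 fl/fl replicate 1 had the highest adipocyte sum of the series, 45640 CPM, beside the lowest Cck. HFD-fed Lama4 fl/fl replicates 4 and 6 had sums of 44230 and 37020 CPM, as high as chow-fed mice, with Cck at 1.66 and 1.93 CPM. Both are among the libraries taken above, by inference, as outliers of the study. HFD-fed Lama4 fl/fl replicates 1, 2 and 5, not so taken, had low sums (8651, 10720 and 13760 CPM) beside low Cck (1.99, 2.82 and 4.74 CPM). Chow-fed Lama4 fl/fl replicates not so taken had sums from 24950 to 45640 CPM. Chow-fed Lama4 AKO replicates 1 and 2 had near sums, 37120 and 35620 CPM, and Cck at 9.01 and 56.6 CPM. In the HFD-fed Lama4 AKO group, the library with the highest Cck (replicate 6, 15.7 CPM) also had the highest adipocyte sum, 23930 CPM, and in chow-fed Lama4 AKO replicates 5 and 6 a low sum (15020 and 15150 CPM) went with low Cck.

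**Figure D2:**
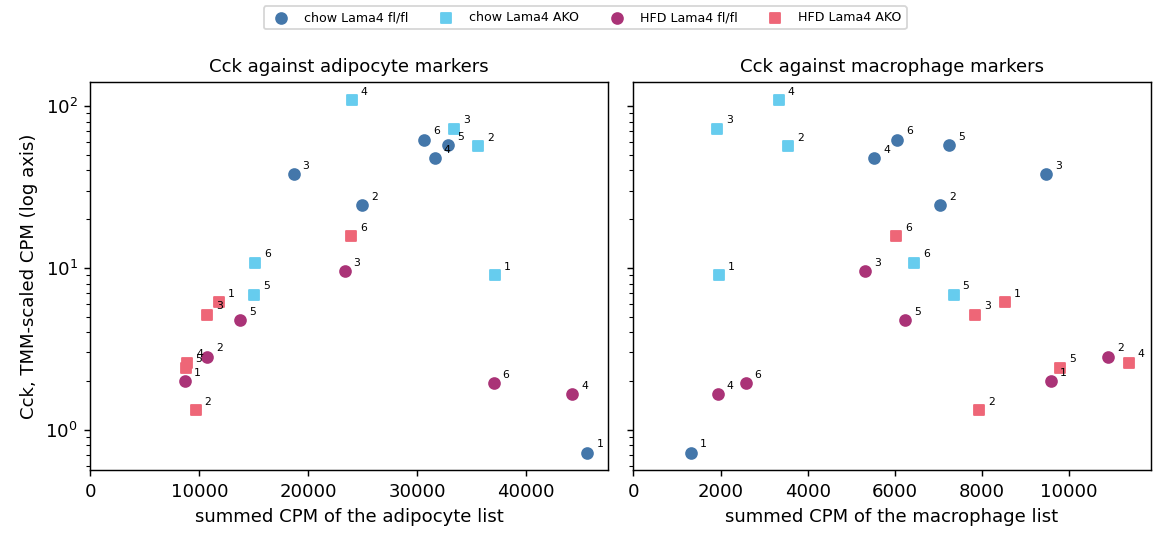
Cck in TMM-scaled CPM (log axis) against the summed CPM of 7 adipocyte markers (left) and 6 macrophage markers (right), 1 point per library, with replicate numbers, coloured by group. Chow-fed Lama4 fl/fl replicate 1 and HFD-fed Lama4 fl/fl replicates 4 and 6 combine adipocyte sums of 37020 CPM or more with Cck below 2 CPM. HFD-fed Lama4 fl/fl replicates 4 and 6 are among the libraries taken, by inference, as outliers of the study.

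Macrophage markers (6 of 6 present) had median sums of 6555 CPM (1315 to 9470) in Lama4 fl/fl and 3445 (1920 to 7353) in Lama4 AKO mice on chow, and 5779 (1934 to 10900) and 8240 (6033 to 11370) on HFD. Their median over 24 libraries was lower on HFD than on chow in Lama4 fl/fl mice and higher in Lama4 AKO mice, while Cck was lower in both. The direction in Lama4 fl/fl mice rested on HFD-fed replicates 3, 4 and 6 (5317, 1934 and 2577 CPM), which the 19 mice leave out. HFD-fed replicates 1, 2 and 5, which stay, had 9593, 10900 and 6241 CPM. Chow-fed Lama4 fl/fl replicates that stay ran from 1315 to 7249 CPM. Mesothelial markers (6 of 6) had medians of 46.2 CPM (19.4 to 133.8), 55.2 (25.7 to 145), 54.2 (17.6 to 77.3) and 34.4 (9.64 to 50.8) in the same order, and endothelial markers (5 of 5) 402.6, 531.5, 344.8 and 291 CPM. The part of adipocytes, macrophages and the other cell types in the Cck difference was not tested.

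Markers of cells that make CCK elsewhere, or that lie near this fat pad, were also examined. Of 8 enteroendocrine markers, 4 were in the tables (Chga, Gcg, Sct and Nts), with group medians of summed level from 1.52 to 2.41 CPM and a highest library of 7.0 CPM, while Cck reached 109. Epididymal epithelium had 2 of its 11 markers, Lcn5 and Adam7, with group medians from 0 to 0.188 CPM and highest sums of 17.6 CPM in chow-fed Lama4 fl/fl and 3.24 in chow-fed Lama4 AKO mice, and at most 0.083 CPM on HFD. Of 7 testis germ cell markers only Sycp3 was in the tables. Its group medians were 84.5 (Lama4 fl/fl) and 58.8 CPM (Lama4 AKO) on chow and 36.7 and 10.9 CPM on HFD, so it was lower on HFD beside Cck, and its part was not tested. Schwann cell and neuron markers (5 of 7) had medians of 48.8, 48.8, 66 and 84.3 CPM, higher on HFD where Cck was lower, and the single exocrine pancreas marker present, Cela1, had medians from 47.7 to 73.1 CPM.

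The other genes of CCK biology were taken as 6 lists by role, beside that of ligands and receptors. Of 98 symbols 63 were in the tables, and 58 besides Cck were tested. The second ligand, gastrin, and the receptors Cckar and Cckbr are not analysed here. In Lama4 fl/fl mice 0 of the 58 were called between diets with edgeR, limma-voom or DESeq2, with 7 at an unadjusted p under 0.05 by edgeR, beside 1354 of all 15020 genes. The median log2 fold change was -0.00, beside -0.01 over all genes tested, of which 0.173% were called. In Lama4 AKO mice 3 of 58 (5.17%) were called, all lower on HFD, beside 4.12% of all genes, with medians of -0.09 and -0.00. For the 19 mice, 8 of 58 (13.8%) were called in Lama4 fl/fl and 16 of 58 (27.6%) in Lama4 AKO mice, beside 11.8% and 15.7% of all genes, so most of these calls were not seen with all 24 libraries. Leaving out single libraries gave 1 to 6 calls in Lama4 AKO mice, with 1 when chow-fed replicate 3 or HFD-fed replicate 1, 4 or 5 was out and 6 when chow-fed replicate 5 was out.

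Among the processing enzymes, Pam, the monooxygenase that amidates the C-terminus on which CCK activity depends, was lower on HFD in Lama4 AKO mice. It ran from 153 to 373 CPM (median 216) on chow and from 108 to 138 CPM (median 127) on HFD, without overlap of the groups, and 4.13% of all genes were likewise lower in every HFD-fed library. Its log2 fold change was -0.94 ± 0.226 (adjusted p = 0.0164, edgeR). In Lama4 fl/fl mice the change was -0.25 ± 0.224 (adjusted p = 0.756), and the difference between the genotypes was -0.69 (adjusted p = 0.304). Pam was called in Lama4 fl/fl mice too in the 19 mice (-0.90 ± 0.208). Tpst1, a tyrosylprotein sulfotransferase, was 0.58 higher on HFD in Lama4 AKO mice (adjusted p = 0.0183) but missed the fold criterion with edgeR. It was called by limma-voom (0.60 ± 0.149) and in the 19 mice (0.64 ± 0.156).

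The remaining processing genes were not called in either diet comparison with edgeR and 24 libraries. Carboxypeptidase E (Cpe), which trims basic residues, changed by -0.14 ± 0.444 in Lama4 fl/fl and 0.87 ± 0.449 in Lama4 AKO mice on the log2 scale. It was called higher on HFD in Lama4 AKO mice among the 19 mice (1.43 ± 0.307). The convertase Pcsk5 changed by -0.07 ± 0.247 and -0.17 ± 0.248. Ctsl, a protease of lysosomes and secretory vesicles, changed by -0.39 ± 0.268 and 0.53 ± 0.268. The second sulfotransferase Tpst2 and the sulfate donor genes Papss1, Papss2 and Slc35b2 lay between -0.42 and 0.07 in both. Prohormone convertases Pcsk1 and Pcsk2 are not analysed here.

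Among 4 peptidases that break down CCK peptides, Enpep (aminopeptidase A) was lower on HFD in Lama4 AKO mice, with a log2 fold change of -2.48 ± 0.609 (adjusted p = 0.0173, edgeR). It ran from 16.2 to 57.7 CPM (median 31.1) on chow and from 2.31 to 15.3 CPM (median 4.99) on HFD, again without overlap. In Lama4 fl/fl mice the same change was 0.25 ± 0.571, with ranges of 3.32 to 30.6 and 3.19 to 44.7 CPM that overlapped widely. The difference between the genotypes was -2.73 ± 0.828 (adjusted p = 0.235) and was not called. With limma-voom Enpep was not called in Lama4 AKO mice either. In the 19 mice Enpep was called in both genotypes (-1.99 ± 0.501 and -2.62 ± 0.395). The others, neprilysin (Mme), Tpp2 and Ace, were not called with 24 libraries, at -0.97, -0.60 and 0.64 in Lama4 AKO mice. All 3 were called in both genotypes in the 19 mice with edgeR, at -1.23, -1.09 and 0.92 in Lama4 fl/fl and -1.13, -0.62 and 0.70 in Lama4 AKO mice.

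Downstream of the Gq-coupled receptors, Plcb1, a phospholipase C, was lower on HFD in Lama4 AKO mice, by a log2 fold change of -1.97 ± 0.482 (adjusted p = 0.0171, edgeR). It ran from 36 to 96.2 CPM (median 73.4) on chow and from 9.55 to 42.3 CPM (median 13.4) on HFD, with a small overlap. In Lama4 fl/fl mice the value was -0.34 ± 0.463 with 24 libraries, and in the 19 mice it was called (-2.15 ± 0.386). The other 17 signalling genes, G proteins, phospholipases, inositol trisphosphate receptors, protein kinases C and arrestins, were not called in either diet comparison with edgeR and 24 libraries. Of the 18, 11 had an unadjusted p under 0.05 in Lama4 AKO mice (edgeR), as had 5976 of all 15020 genes. DESeq2 called the phospholipases Plcb3 (-0.66) and Plcb4 (-1.43) lower in Lama4 AKO mice. In the 19 mice Plcb4 was called lower in both genotypes (-1.99 ± 0.344 in Lama4 fl/fl and -1.58 ± 0.264 in Lama4 AKO mice). There, in Lama4 AKO mice, Plcb3 (-0.69) and Itpr1 (-0.71) were also called lower and Itpr3 (0.65) higher. Pam, Enpep and Plcb1 were lower beside the adipocyte list, whose 7 members changed by -2.10 to -0.66 in the same comparison, and its part in them was not tested.

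**Figure D3:**
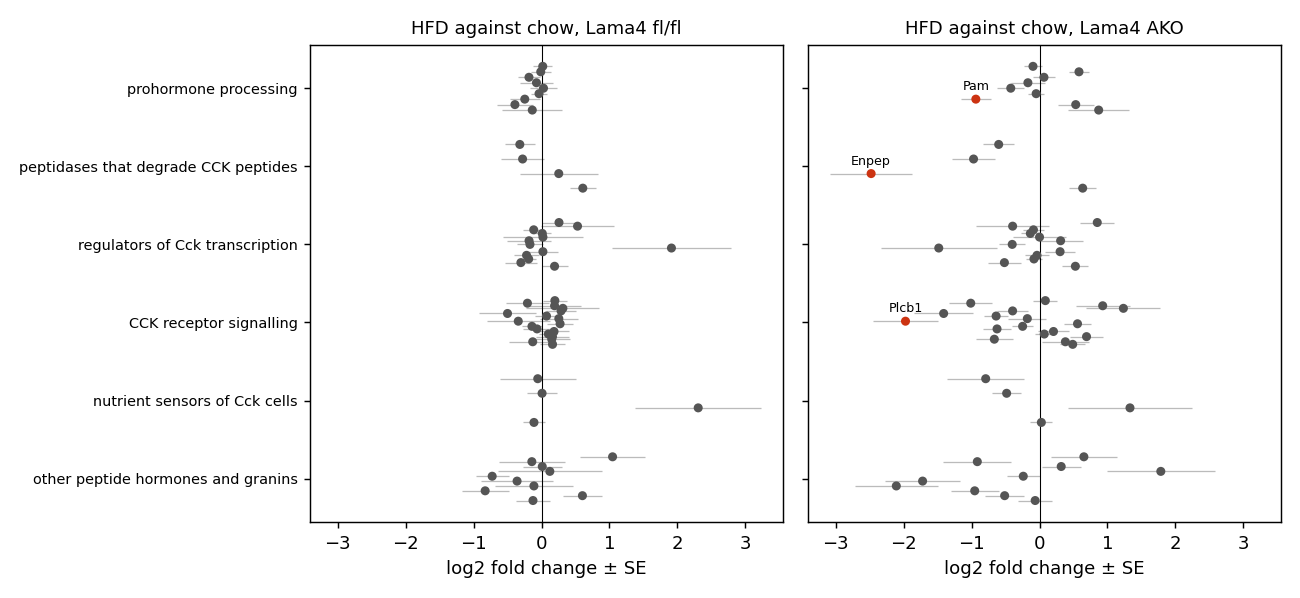
Log2 fold change of HFD against chow, with its standard error, for the 58 tested genes of 6 role lists around CCK, in Lama4 fl/fl (left) and Lama4 AKO mice (right). Genes that met the call are red and named: 0 on the left, and Pam, Enpep and Plcb1, all lower, on the right.

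The factors known to act on the Cck promoter were measured at the mRNA level only. Of 13 tested regulators (CREB family members and their coactivators, Fos, Jun, Sp1, Usf1, Usf2 and Isl1) 0 were called between diets in either genotype with edgeR, beside 0.173% and 4.12% of all genes. An unadjusted p under 0.05 (edgeR) was found for 1 in Lama4 fl/fl and 4 in Lama4 AKO mice, beside 1354 and 5976 of all 15020 genes. DESeq2 called Usf2 in Lama4 AKO mice. Usf2, whose protein binds E-boxes such as the CACGTG printed above, was 0.26 ± 0.246 higher in Lama4 fl/fl and 0.85 ± 0.248 higher in Lama4 AKO mice (adjusted p = 0.772 and 0.0254, edgeR). Creb1 changed by -0.19 ± 0.114 and -0.08 ± 0.114. Of the fat-sensing genes of gut Cck cells, 4 were tested and 0 called, including the fatty acid receptors Ffar1 and Ffar4 and the transporter Cd36, and 0 of 10 other peptide hormones and granins were called. In the 19 mice, Atf2 was called lower on HFD in Lama4 fl/fl mice (-1.24 ± 0.155), and in Lama4 AKO mice Usf2 (1.02 ± 0.188), Atf1 (0.66 ± 0.157) and the neuropeptide Npy (2.80 ± 0.657) were called higher and the endothelin Edn1 (-1.87 ± 0.422) lower.

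Between genotypes, 0 of the 58 genes were called on chow or on HFD, nor for the difference of the diet effects (edgeR), beside 0.113%, 0.173% and 0.386% of all genes. At an unadjusted p under 0.05 (edgeR) there were 4, 8 and 11, beside 878, 2227 and 2337 of all 15020 genes. DESeq2 called 0, 0 and 1, the last being Enpep (1.72% of the list beside 0.985% of all genes), and limma-voom 0 in each. In the 19 mice, 1 gene was called on HFD, Atf2, a CREB family factor (0.63 ± 0.148, 1.72% of the list beside 0.565% of all genes).

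Neighbouring genes on the chromosome had smaller diet differences than Cck. Trak1, an adaptor for mitochondrial transport 14906 bases away, changed by 0.25 ± 0.137 in Lama4 fl/fl and 0.20 ± 0.138 in Lama4 AKO mice on HFD (log2). Lyzl4, 82149 bases away on the other side, changed by -0.63 ± 0.609 and 0.66 ± 0.631. Ctnnb1, encoding β-catenin and 529317 bases away, was the only neighbour called, higher on HFD in Lama4 AKO mice by 0.62 ± 0.136 (1.29% of all genes were called higher there, adjusted p = 0.0130, edgeR). Ulk4 and Sec22c were not called, and Vipr1 was below the filter.

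The genes whose pattern was most like that of Cck were found by Pearson correlation of log2 CPM over the 24 libraries, among 12959 genes. S100a8, a calcium-binding protein of neutrophils and other myeloid cells, came first at r = 0.915 (Spearman's rho 0.857). It was followed by Tfr2, the second transferrin receptor (0.852), Il13ra2, a decoy cytokine receptor (0.844), Hp, haptoglobin (0.815), Atp1a4 (0.812), C2cd2 (0.812), Nusap1, a spindle protein (0.802) and Lipf, gastric lipase (0.798). The 99th percentile over all genes was 0.617. The libraries share diet, depth and cell makeup, which enter these values.

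With group means removed, so that only differences among mice of the same group remain, S100a8 was again first (r = 0.915). Next came Tph2, a tryptophan hydroxylase of neurons (0.884), Nrep (0.852), Il13ra2 (0.83), Kcnj16, a potassium channel subunit (0.824), Hp (0.822), Tnfaip8l1 (0.80) and Cdca7l (0.798), against a 99th percentile of 0.617. S100a8, Il13ra2 and Hp were in both lists. Without the 2 libraries farthest from the median of Cck (chow-fed Lama4 AKO replicate 4 and chow-fed Lama4 fl/fl replicate 1) the values over all libraries were 0.908 for S100a8, 0.88 for Tfr2 and 0.801 for Hp. Within groups they were 0.844 for S100a8, 0.835 for Hp, 0.788 for Tph2 and 0.607 for Cdca7l, with group means still taken over all 24 libraries. With only chow-fed Lama4 fl/fl replicate 1 left out and the means taken anew, they were 0.826, 0.866, 0.763 and 0.609 for these genes.

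S100a8 shared the single libraries of Cck. It ran from 17.1 to 266.8 CPM (median 197.3) in chow-fed Lama4 fl/fl mice, where replicate 1 was again the lowest of all 24 libraries. In chow-fed Lama4 AKO mice it was 44.7, 276.7, 144.4, 176.6, 62.3 and 65.1 CPM in replicates 1 to 6, so the 3 libraries high in Cck were the 3 high in S100a8. It ran from 44.9 to 85.9 CPM (median 50.8) in HFD-fed Lama4 fl/fl and from 35.8 to 95.6 CPM (median 55.9) in HFD-fed Lama4 AKO mice. Within-group correlations were 0.933 over the 12 chow-fed and 0.846 over the 12 HFD-fed libraries.

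Hp split the chow-fed Lama4 AKO libraries the same way, at 1988, 4606, 4512, 5887, 2125 and 2007 CPM in replicates 1 to 6. It was lower on HFD in Lama4 AKO mice (-1.33 ± 0.259 on the log2 scale, edgeR). Of the 13 like genes only Hp met the call in a diet comparison, beside 0.173% of all genes in Lama4 fl/fl and 4.12% in Lama4 AKO mice. Tfr2 kept to the order of Cck in chow-fed Lama4 AKO mice too, at 6.71, 11.9, 16.2, 17.7, 5.80 and 7.34 CPM. Since the genes were chosen for likeness to a gene with a diet difference, their own diet differences (that of Hp above, for S100a8 -1.73 ± 0.476 in Lama4 fl/fl and -1.05 ± 0.469 in Lama4 AKO mice, for Tfr2 -1.40 ± 0.394 and -1.20 ± 0.393) and calls are not separate evidence.

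**Figure D4:**
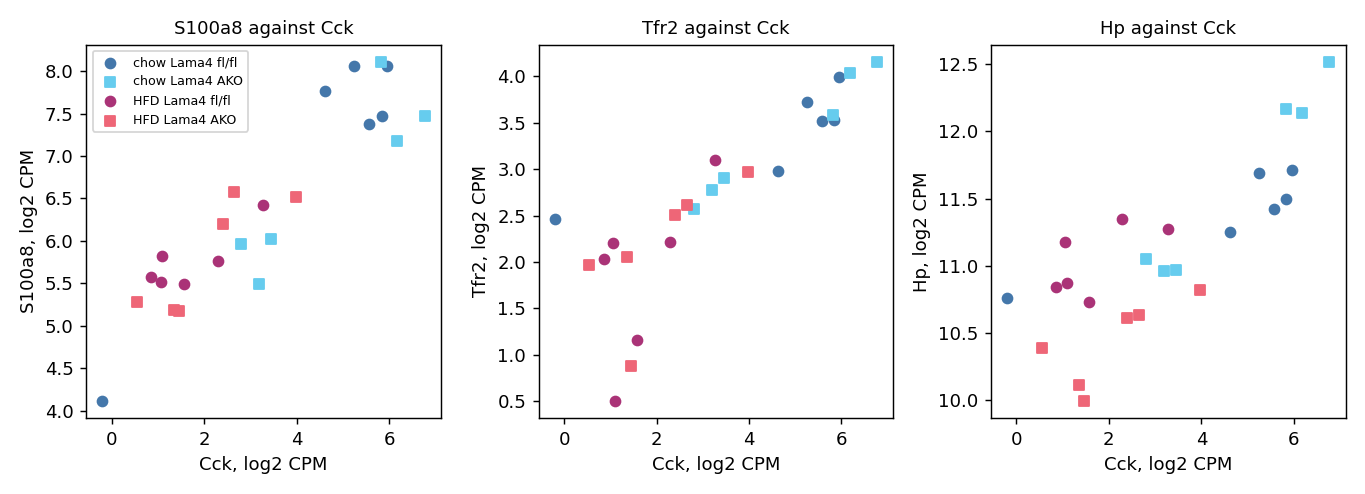
Log2 CPM of S100a8, Tfr2 and Hp (vertical) against log2 CPM of Cck (horizontal), 1 point per library, coloured by group. The correlations over 24 libraries are 0.915, 0.852 and 0.815, and chow-fed Lama4 fl/fl replicate 1 is the leftmost point in each panel.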

How the data were processed

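The authors aligned and counted QuantSeq reads with the Lexogen pipeline on Bluebee and deposited raw counts per gene and library. They also deposited the same counts as a normalized signal, divided by 1 size factor per library, used here for symbols and coordinates only. The submitters' processing notes name R 4.0.3 and DESeq2 1.30, with no role given.

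The 15020 genes that reached 1 CPM in 3 or more libraries were fitted in edgeR 4.0.16 (R 4.3.3) with TMM factors and 1 coefficient per group, and tested by quasi-likelihood with Benjamini-Hochberg adjustment over all of them. Log2 CPM used a prior count of 2. Alternatives were limma-voom (limma 3.58.1), DESeq2 1.42.0, other scaling, no filter, the 19 mice and leaving out each library. The fits were tested on simulated data. Same-group libraries differed beyond sampling noise in all 60 pairs. The labels name no batch, and separate mice were taken from the labels.

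Cck and the role and marker lists were chosen with earlier results of these data known. Named were Cck, list members, the 8 genes most like Cck over all libraries and within groups (mean of at least 2 CPM in some group), 3 neighbours on each side, and Lama4.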

Additional observations from a re-analysis of the deposited data

Results flagged for a closer look

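In groups of 6, a library was marked where its gap to the nearest other, divided by the group's range of log2 CPM, was above Dixon's 95% critical value. Chance marks about 1 in 20 groups, and 16 of 68 groups (Cck, the genes most like it and the called list genes, 17 in all) were marked. Of these, 10 were chow-fed Lama4 fl/fl replicate 1 at the low end. The shares were 0.783 for Cck, 0.828 for S100a8, 0.807 for Il13ra2, 0.749 for Atp1a4, 0.631 for C2cd2, 0.803 for Tph2, 0.863 for Nrep, 0.789 for Kcnj16, 0.691 for Tnfaip8l1 and 0.773 for Cdca7l. The genes were chosen for likeness to Cck, so these are not separate findings.

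HFD-fed Lama4 fl/fl replicate 3 was high for S100a8 (0.655) and C2cd2 (0.708). Tnfaip8l1 was low in chow-fed Lama4 AKO replicate 5 (0.683) and high in HFD-fed Lama4 AKO replicate 6 (0.647). Cdca7l was low in HFD-fed Lama4 AKO replicate 2 (0.626), and Plcb1 in chow-fed Lama4 fl/fl replicate 3 (0.677).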

How the results depend on the processing

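Of 373 values recomputed, 341 were counted as unchanged, and the cause of the other 32 was not tested. The 373 include fits that left out a library from outside the groups compared, which could move a value only a little. For the genotype values and the difference of diet effects, unchanged meant the same direction and side of the threshold. For the diet values of Cck it meant the same direction and a shift below its pooled within-group SD of 1.65. The call was not part of that rule. Cck met the call in 23 of 31 alternative fits in Lama4 fl/fl and 13 of 31 in Lama4 AKO mice. For counts, unchanged meant staying within 1.5 times. The diet difference of Cck on the log2 scale kept its sign throughout, from -3.82 to -3.16 in Lama4 fl/fl and -3.66 to -2.51 in Lama4 AKO mice with single libraries left out, and -3.59 and -3.22 in the 19 mice. The genotype difference ran from -0.28 to 0.45 on chow and -0.11 to 1.03 on HFD, turning negative without replicate 1 of chow-fed Lama4 fl/fl (-0.05), replicate 4 of chow-fed Lama4 AKO (-0.28) and HFD-fed Lama4 AKO replicate 6 (-0.11). The difference of diet effects ran from -0.33 (without the last) to 0.82 and was -0.16 with limma-voom in the 19 mice. Few reads limit the level of Cck on HFD.

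List genes called numbered 0 to 1 (1 when replicate 4 of HFD-fed Lama4 fl/fl was out) between diets in Lama4 fl/fl mice, 0 in both genotype comparisons and 0 to 1 for the difference of diet effects (1 without replicate 1 of chow-fed Lama4 fl/fl, HFD-fed Lama4 fl/fl replicate 2 or HFD-fed Lama4 AKO replicate 6). In Lama4 AKO mice they numbered 1 to 6, with 1 without chow-fed replicate 3 or HFD-fed replicates 1, 4 or 5, and 6 and 5 without chow-fed replicates 5 and 6. DESeq2 called 6 there and 1 for the difference of diet effects. The 19 mice gave 8 and 16 between diets and 1 between genotypes on HFD with edgeR, and 8, 15 and 1 with limma-voom. Over all genes the 5 comparisons had 26, 619, 17, 26 and 58 calls, against 59, 1315, 41, 81 and 148 with DESeq2 and 1750, 2332, 31, 84 and 101 in the 19 mice, and ran over 14 to 63, 299 to 1169, 4 to 65, 13 to 91 and 29 to 188 with single libraries left out.

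Of the 8 genes most like Cck over all libraries, 5 to 8 were shared with single libraries left out (5 without replicate 1 of chow-fed Lama4 fl/fl), 4 with Spearman's rho and 4 in the 19 mice. Within groups 3 to 8 were shared (3 without that library, 5 without chow-fed Lama4 AKO replicate 3 or 5), 5 with Spearman's rho and 3 in the 19 mice.

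The labels name no pairing of mice by replicate number. Same-numbered libraries of different groups had correlations of deviations from -0.534 to 0.714, above 0.1 in 15 of 36 pairs. Differently numbered libraries were not compared in this way, so these values cannot decide whether the numbers pair mice. With a replicate block, Cck changed by -3.21 and -2.76 between diets and by 0.22 and 0.66 between genotypes, with 0.44 for the difference, Cck met the call in neither genotype, and 19, 457, 10, 19 and 32 genes were called in the 5 comparisons.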
